A study of Chlorocebus sabaeus with 10 samples.

Results

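The genes of the BCL2 family that decide whether a cell opens its mitochondria and dies were examined in liver biopsies of 10 female vervet monkeys. A list of 10 family genes was drawn up and matched by gene symbol to a deposited table of 28078 transcripts. Of these genes, 9 had a row and BBC3 was not analysed here. Each of the 9 was represented by a single annotated transcript. A count in at least 1 animal was found for 8, and 3 (BAX, BCL2L1 and BAD) held enough counts for the test that covered 7948 transcripts. All animals were kept on chow before the study and were then fed either a high fructose (HFr) diet (n = 5) or chow (n = 5) for 6 weeks. The design used females only and assigned animals so as to balance age and body weight between the diets. The study nevertheless reported a higher mean age in the HFr group, a difference that was not significant in its test. Each animal gave 1 flash frozen liver sample and 1 polyadenylated RNA library. The comparison asks whether the HFr diet altered the RNA of these genes in the liver.

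The proteins of this family act at the outer mitochondrial membrane. The effectors BAX and BAK1 form pores that release cytochrome c, which sets off the caspases. The pro-survival proteins BCL2, BCL2L1 (BCL-xL) and MCL1 hold the effectors in check. The BH3-only proteins BID, BAD, BCL2L11 (BIM), BBC3 (PUMA) and BIK relay stress signals, either by binding the pro-survival proteins or by activating the effectors. In hepatocytes BCL2L1 and MCL1 are the guardians known to matter most, and BID links death receptors at the cell surface to the mitochondria. Much of the control of these proteins takes place after translation, by cleavage, phosphorylation or degradation, which RNA counts do not show.

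Libraries held between 2977282 and 4992505 estimated counts. Transcripts of the mitochondrial genome took from 34.7% to 73.6% of them, which left between 864571 and 2657103 counts for nuclear genes. Normalized counts are given as CPM, the read count relative to a library size corrected with TMM (trimmed mean of M values) factors. At this depth 1 read in an animal stood for 0.182 to 0.502 normalized counts, and most members rested on few reads. Hepatocyte markers dominated every library, with a summed level of 8 genes, ALB and APOA1 among them, between 45570 and 69120 normalized counts on HFr and between 38960 and 76100 on chow. The libraries are mixtures of liver cells, and fewer cells of a type cannot be told apart from less RNA per cell.

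BAX RNA had a higher mean in the livers of HFr-fed animals than in those of chow-fed animals, though the groups overlapped. Among the tested members, BAX alone had a 95% interval of the log2 fold change that excluded 0. Its difference did not pass adjustment over all tested transcripts. The gene lies on chromosome 6 of the ChlSab1.1 assembly, from 42186238 to 42194115. In the HFr animals, replicates 1 to 5, its normalized counts were 3.37, 5.12, 5.61, 4.41 and 6.68. In the chow animals they were 2.04, 3.26, 2.55, 2.51 and 3.65. Every HFr animal exceeded the mean of the chow group, and the overlap came from a single pair, since HFr replicate 1 was below chow replicate 5. The means were 5.04 ± 1.25 (SD, n = 5) on HFr and 2.80 ± 0.644 (SD, n = 5) on chow.

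For BAX the estimated log2 fold change was 0.87 (standard error 0.28, 95% interval 0.27 to 1.48), which is a 1.83-fold higher level on HFr. With edgeR's quasi-likelihood test its unadjusted p was 0.00799 and its p adjusted over all 7948 tested transcripts was 0.9996. An unadjusted p under 0.05 was reached by 1 of the 3 tested members and by 4.29% of all tested transcripts, and in the higher direction alone by 2.06%. No tested transcript passed 0.05 after adjustment. An exact two-sided permutation test over all assignments of animals to diets gave BAX p = 0.0159, where the smallest possible value is 0.00794. Scaled by library size alone, without TMM factors, the log2 fold change of BAX stayed at 0.87 and its unadjusted p was 0.0701.

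Single animals gave BAX between 5 and 34 reads, so the count in each was imprecise. Chow replicate 4, the library with the fewest nuclear counts, held 5 BAX reads, and counting error alone allows 0.815 to 5.86 normalized counts there (exact Poisson interval). HFr replicate 5, with 34 reads, had an interval from 4.63 to 9.34. Summed over animals, BAX held 100 reads on HFr and 51 on chow. These intervals cover counting error only.

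**Figure D1:**
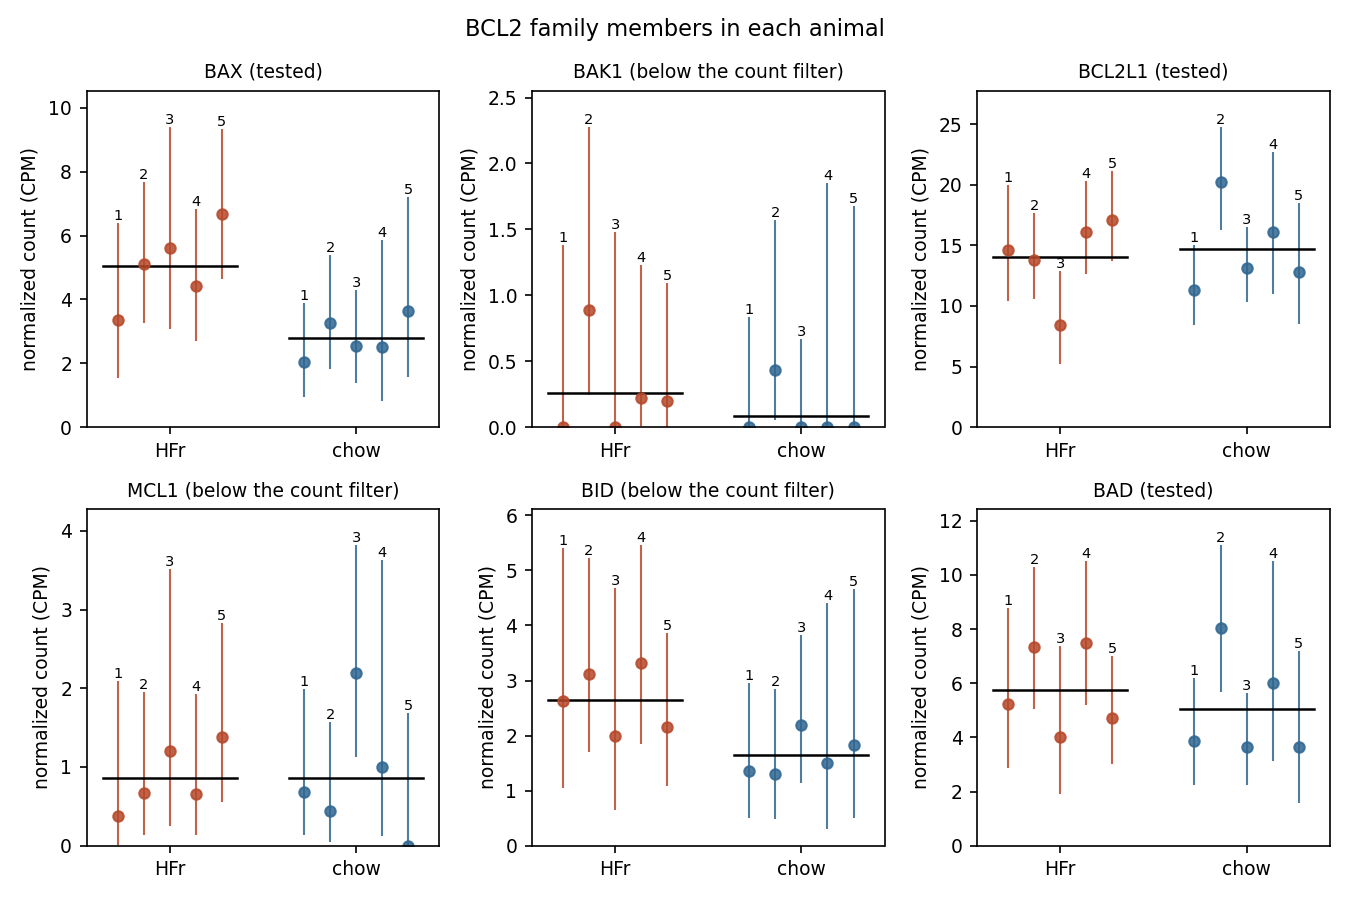
Normalized counts (CPM, vertical axis) of 6 BCL2 family members in each animal, with HFr animals in red and chow animals in blue. Points are animals numbered by replicate, vertical lines are exact Poisson 95% intervals of the counts, and horizontal bars are group means. BAX runs from 3.37 to 6.68 on HFr and from 2.04 to 3.65 on chow, while BCL2L1 overlaps widely. BAK1 and MCL1 rest on a few reads.

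BAK1, the second effector, was near the limit of detection. It held 4 reads in HFr replicate 2, 1 each in HFr replicates 4 and 5, and 2 in chow replicate 2, with 0 in the other animals. That amounts to 6 reads on HFr and 2 on chow, a ratio of 2.91 with a counting interval from 0.52 to 29.4. An exact permutation test of its normalized counts gave p = 0.563. A difference in BAK1 was therefore not detectable with so few reads.

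BCL2L1 was the pro-survival member with the most reads, from 21 to 93 per animal, and its level was similar on both diets. The gene lies on chromosome 2, from 36058919 to 36116470. Its normalized counts were 14.6, 13.8, 8.42, 16.1 and 17.1 in HFr replicates 1 to 5. In chow replicates 1 to 5 they were 11.3, 20.2, 13.1, 16.1 and 12.8. Chow replicate 2 was the highest of the 10 animals and HFr replicate 3 the lowest, and the remaining values interleaved. The log2 fold change was -0.06 (standard error 0.22, edgeR unadjusted p = 0.807), with a 95% interval from -0.54 to 0.42. Without HFr replicate 3 it was 0.06, and without chow replicate 2 it was 0.10, so its sign rested on either animal.

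MCL1 held 17 reads on HFr and 19 on chow, 12 of the latter in chow replicate 3. Its normalized counts ran from 0.374 to 1.38 on HFr and from 0 to 2.19 on chow (exact permutation p = 0.984). The deposited table places MCL1 on the unplaced scaffold KE148049.1, from 1079014 to 1081184, and whether this model captures all of its reads was not tested. BCL2 was at 0 in all 10 animals. A count of 0 allows up to 3 reads in total, or 0.0791 normalized counts over the libraries combined.

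Because BAX and BCL2L1 were counted in the same libraries, the share of BAX among the reads of both does not depend on how libraries are scaled to each other. It was 18.8%, 27.1%, 40%, 21.5% and 28.1% in HFr replicates 1 to 5. In chow replicates 1 to 5 it was 15.3%, 13.9%, 16.3%, 13.5% and 22.2%. HFr replicates 1 and 4 were below chow replicate 5, and the other HFr animals were above all chow animals. The mean share was 27.1% ± 8.18 (SD, n = 5) on HFr and 16.2% ± 3.51 (SD, n = 5) on chow. The highest share, in HFr replicate 3, combined 14 BAX reads with 21 BCL2L1 reads, and its exact Clopper-Pearson interval ran from 23.9% to 57.9%. The share is a ratio of read counts and not of molecules, since longer transcripts give more reads. The share of BAX among the reads of BAX and MCL1 ran from 82.4% to 90% on HFr and from 53.8% to 100% on chow. The highest was in chow replicate 5, which had 0 MCL1 reads, and the lowest in chow replicate 3, which had 12. A log2 ratio with MCL1 or BAK1 was not defined in every animal, because each of these genes had no read in at least 1 animal.

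**Figure D2:**
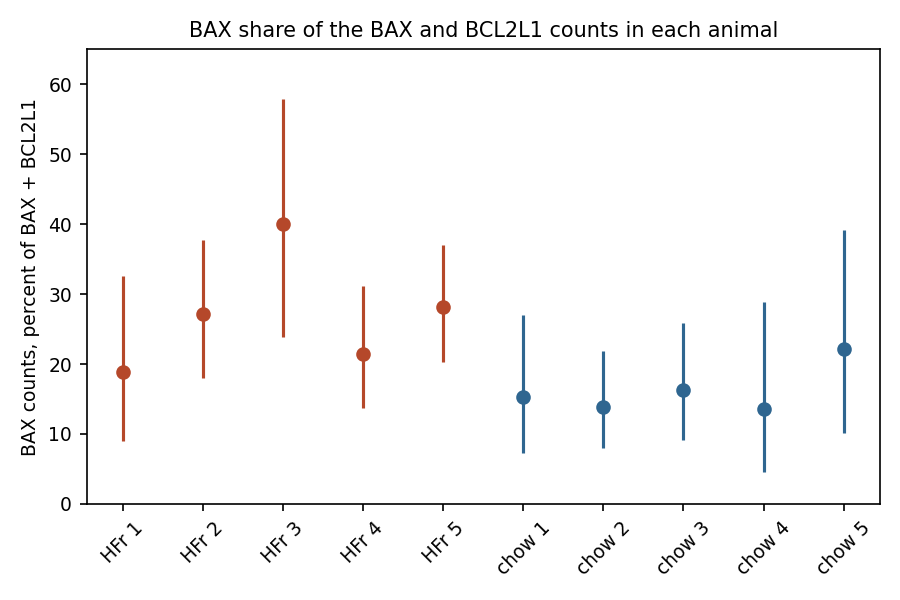
Share of BAX among the reads of BAX and BCL2L1 (percent, vertical axis) in each animal, HFr in red and chow in blue. Vertical lines are exact Clopper-Pearson 95% intervals of the counts. The shares run from 18.8% to 40% on HFr and from 13.5% to 22.2% on chow.

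Among the BH3-only members, BID had higher normalized counts on HFr in the exact permutation test, while it fell short of the count filter of the main test. BID, the member cleaved by caspase-8, lies on chromosome 19 from 1952320 to 1982804. HFr replicates 1 to 5 had 2.62, 3.12, 2, 3.31 and 2.16 normalized counts. Chow replicates 1 to 5 had 1.36, 1.31, 2.19, 1.51 and 1.83. Each HFr value was higher than the average of the chow animals, and chow replicate 3 was above HFr replicates 3 and 5. These values came from 5 to 15 reads per HFr animal and 3 to 12 per chow animal.

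For BID the permutation p was 0.0238 before adjustment and 1 after adjustment over the 16124 transcripts with a count. In the same test 3.57% of these transcripts had an unadjusted p under 0.05, and 2 of the 8 members with a count did, BAX and BID. Without a filter on low counts, edgeR estimated BID at 0.69 on the log2 scale (standard error 0.41), with an unadjusted p of 0.108. In that fit 4.71% of 16066 transcripts had an unadjusted p under 0.05, and among the 8 members with a count BAX alone did. Its unadjusted p from edgeR in that fit was 0.0169, and its adjusted p was 0.838. Scaled by library size only, the permutation p was 0.0794 for BID and 0.0873 for BAX.

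BAD, which is kept inactive by phosphorylation downstream of insulin and growth factor signals, differed less than the animals varied. It lies on chromosome 1, from 9949762 to 9964432. Its normalized counts were 5.24, 7.35, 4.01, 7.5 and 4.72 in HFr replicates 1 to 5, and 3.86, 8.05, 3.64, 6.02 and 3.65 in chow replicates 1 to 5. The highest value belonged to a chow animal, and the ranges overlapped over most of their length. The log2 fold change was 0.21 (standard error 0.30, edgeR unadjusted p = 0.502), with a 95% interval from -0.44 to 0.86.

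BIK, an endoplasmic reticulum resident BH3-only protein, gave 1 read on HFr and 5 on chow. The 5 reads were spread over 4 chow animals (exact permutation p = 0.0873), and the ratio of 0.194 had a counting interval from 0.0041 to 1.73. BCL2L11 gave 1 read in all, in chow replicate 3. For neither gene was a difference detectable with so few reads. Normalized counts overlapped between the diets for each of the 3 tested members, while 0.541% of all tested transcripts had no overlap, 0.214% with HFr above and 0.327% with HFr below. They also overlapped for each of the 8 members with a count, where 0.478% of the 16124 transcripts had no overlap.

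Of 13 further genes of the family or close to it, 12 had a row, 9 had a count and 7 could be tested. The other BCL2 family genes tested included none with an unadjusted p under 0.05 from edgeR, and their median log2 fold change was 0.00, against 0.00 for all tested transcripts. BOK, an effector-like member, had 52.1 ± 12.4 normalized counts (SD, n = 5) on HFr and 45.4 ± 14.7 (SD, n = 5) on chow. BCL2L2 (BCL-w), a pro-survival member, had 23.7 ± 4.52 and 22.2 ± 3.34. BCL2A1, a pro-survival member of blood cells, was below the chow mean of 3.46 in all 5 HFr animals, which ran from 2.45 to 3.21, yet chow replicates 1 and 2 were lower still (log2 fold change -0.21, standard error 0.32). BMF, a BH3-only gene, had 5.09 ± 1.45 against 4.74 ± 1.19, and BCL2L14 had 3.45 ± 1.81 against 3.76 ± 2.34 (SD, n = 5 in each group). PMAIP1 (NOXA), HRK and BCL2L10 were at 0 in every animal.

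The mitophagy receptor genes BNIP3 and BNIP3L, distant relatives with a BH3-like stretch, held more reads than any other gene of the family. BNIP3 lies on chromosome 9, between positions 124568695 and 124585980. It had 131, 84.0, 118, 84.5 and 137 normalized counts in HFr replicates 1 to 5. Chow replicates 1 to 5 had 106, 121, 183, 159 and 183. No HFr animal reached the chow average of 150, and 3 chow animals were above every HFr animal. The log2 fold change of BNIP3 was -0.44 (standard error 0.22, 95% interval -0.90 to 0.03, edgeR unadjusted p = 0.0633). Its unadjusted p from edgeR was 0.0263 without chow replicate 1, 0.0396 without HFr replicate 5 and 0.0456 without chow replicate 2. Under the other 20 of 23 ways of processing the data it was 0.05 or more. It rose to 0.144 without HFr replicate 2, 0.134 without HFr replicate 4, 0.143 without chow replicate 3 and 0.141 without chow replicate 5. Scaled by library size only, it was 0.252. BNIP3L had 71.5 ± 18.8 and 71.9 ± 43.4 normalized counts (SD, n = 5 each), with chow replicate 5 at 147 and the rest of that group at 43.5 to 73.8. Without chow replicate 5 its log2 fold change moved from 0.00 to 0.43 (edgeR unadjusted p = 0.0928).

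**Figure D3:**
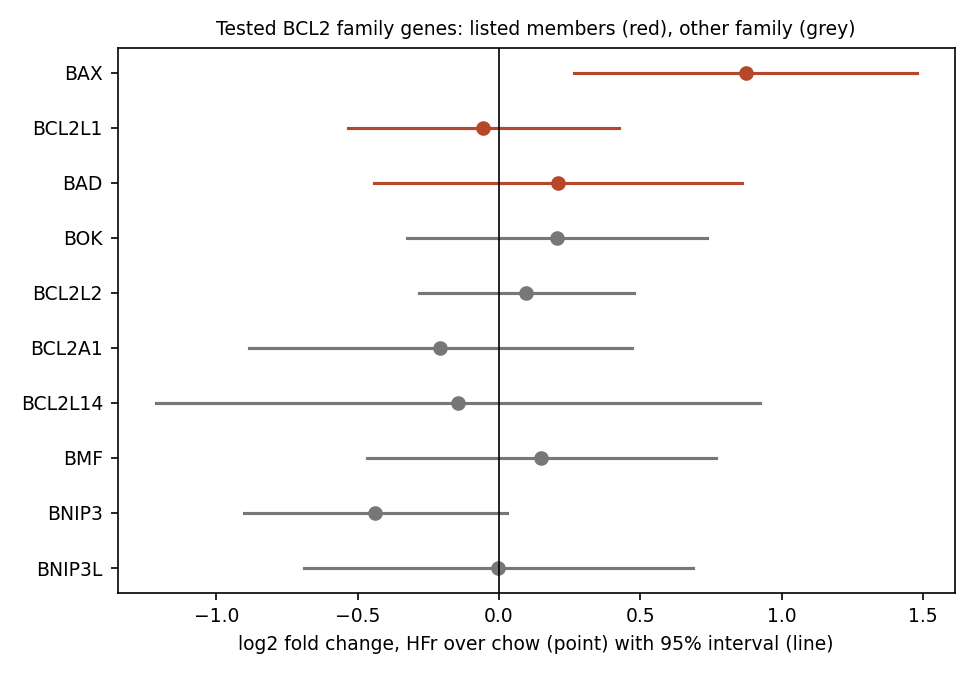
Log2 fold change of HFr over chow (horizontal axis) for the 10 tested BCL2 family genes, with listed members in red and further family genes in grey. Points are edgeR estimates and lines their 95% intervals. The interval of BAX, from 0.27 to 1.48, excludes 0, and that of BNIP3 ends at 0.03.

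Downstream of the mitochondria, 7 of 17 genes of the caspase cascade and its inhibitors could be tested, 4 with a positive and 3 with a negative log2 fold change (median 0.13). ENDOG, the gene of a mitochondrial nuclease, was the one of these 7 with an unadjusted p under 0.05 from edgeR. Of all tested transcripts, 4.29% reached that threshold. Its normalized counts were 16.1, 35.0, 16.0, 18.8 and 13.0 in HFr replicates 1 to 5 and 11.1, 12.8, 14.6, 11 and 15.5 in chow replicates 1 to 5. The log2 fold change was 0.61 (standard error 0.26, edgeR unadjusted p = 0.0329, adjusted p = 0.9996), and it was 0.29 without HFr replicate 2 (unadjusted p = 0.164). CASP9, the initiator caspase of this route, had 25.5 ± 7.47 and 20.4 ± 5.25 normalized counts (SD, n = 5 each, unadjusted p = 0.190). APAF1, which assembles with CASP9, held 9 reads on HFr and 3 on chow. CYCS was not analysed here.

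Upstream, none of 5 tested genes of the death receptor arm or of 15 tested regulators of the members had an unadjusted p under 0.05 with edgeR's quasi-likelihood test on all animals. In the death receptor arm 1 gene did without chow replicate 2, and among the regulators 1 did without HFr replicate 3. Their median log2 fold changes were -0.15 and -0.07. CASP8, which cleaves BID, held 31 reads on HFr and 25 on chow and was not tested. YWHAZ, an adaptor that binds phosphorylated BAD and is made in every cell, held 15 reads on HFr and 14.0 on chow.

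Marker genes of other cell types were set beside BAX, and their part in its difference was not tested. None of the tested hepatocyte (8), macrophage (7), lymphocyte (3), blood (2), cholangiocyte (2) or endothelial markers (8) had an unadjusted p under 0.05 with edgeR. The cholangiocyte marker KRT19 fell short of the count filter. Without that filter its log2 fold change was -1.58 (standard error 0.63, edgeR unadjusted p = 0.0198, adjusted p = 0.838). It held 33.7 reads on HFr and 105.9 on chow, 65.9 of the latter in a single animal (exact permutation p = 0.214). In the exact permutation test the hepatocyte marker TF (transferrin) had p = 0.0476 before and 1 after adjustment. Its normalized counts were 5690 ± 326 on HFr and 4420 ± 1090 on chow (SD, n = 5 in both), and each HFr animal was above the average of the chow group. TF was named after the values were seen. Of the 8 tested hepatocyte markers, 5 had a positive and 3 a negative log2 fold change (median 0.08). For the 7 tested macrophage markers these numbers were 6 and 1 (median 0.17), and for the 8 endothelial markers 5 and 3 (median 0.13). For the 6 tested stellate cell and fibroblast markers they were 1 and 5 (median -0.35). The macrophage marker CD14 averaged 275 normalized counts on both diets, a large part of the summed level of its list. The summed level ran from 319.5 to 489.2 normalized counts on HFr and from 317.1 to 496.5 on chow for macrophage markers, from 13.7 to 24.5 and from 13.9 to 18.7 for lymphocyte markers, and from 104.7 to 353.1 and from 68.3 to 350.1 for blood markers. For cholangiocyte markers it ran from 5.96 to 27.6 and from 10 to 32.4, and for endothelial markers from 355.6 to 470.3 and from 283.1 to 503. Stellate cell and fibroblast markers summed to between 222.5 and 404.3 on HFr and between 178.7 and 821.7 on chow. Of their 6 tested genes, ACTA2, the smooth muscle actin of myofibroblasts and vessel walls, was lower on HFr, with a mean of 5.17 ± 2.23 and, on chow, of 15.8 ± 10.4 normalized counts (SD, n = 5 in both). Its log2 fold change was -1.57 (standard error 0.49), with an unadjusted p of 0.00646 and an adjusted p of 0.9996 from edgeR. No marker with a row was at 0 in all animals.

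The mitochondrial share of the counts, which varied widely on both diets, was also set beside the members. Across the 10 animals its correlation with log2 normalized counts was weak for BAX (Pearson's r = -0.14, permutation p = 0.692, Spearman's rho = -0.04, p = 0.919) and for BID (r = -0.04, permutation p = 0.913, rho = -0.06, p = 0.894). For BCL2L1 r was -0.44 (permutation p = 0.204, rho = -0.33, p = 0.350) and for BAD -0.31 (permutation p = 0.379, rho = -0.24, p = 0.512). Over these 4 relations the smallest adjusted p was 0.758. Without the 2 animals farthest from the median share, r was -0.12, -0.20, -0.22 and 0.29 for BAX, BID, BCL2L1 and BAD. A relation within each diet was not computed, since each holds 5 animals. With the mitochondrial share as a covariate the log2 fold change of BAX was 0.89 (edgeR unadjusted p = 0.00796), and without mitochondrial transcripts it was 0.87 (unadjusted p = 0.00910).

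**Figure D4:**
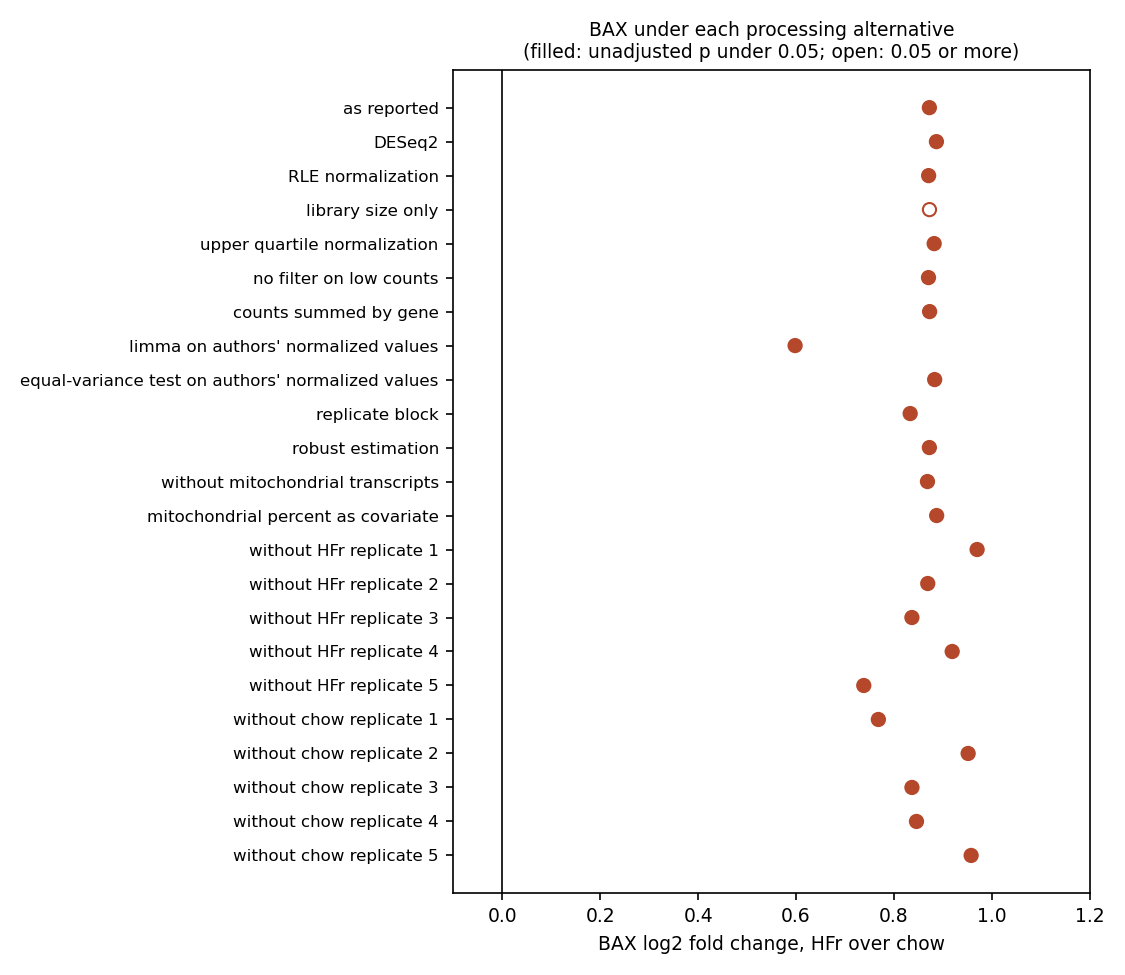
Log2 fold change of BAX, HFr over chow (horizontal axis), as reported and under 22 other ways of processing the data (rows). Filled points have an unadjusted p under 0.05 and the open point does not. All values lie between 0.60 and 0.97, and the open point is scaling by library size only.

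For each tested member, the named transcripts with the most similar pattern across the 10 animals were picked by Pearson's r of log2 normalized counts, as a description. For BAX these were SPATA18 (r = 0.85), LRPAP1 (r = 0.83) and SLC37A4 (r = 0.83). The diets differed by a log2 fold change of 1.65 ± 0.42 for SPATA18, 0.47 ± 0.15 for LRPAP1 and 0.37 ± 0.19 for SLC37A4 (estimate ± standard error). For BCL2L1 they were RASD2 (r = 0.96), SLC25A47 (r = 0.90) and C19orf24 (r = 0.89), and for BAD they were GUK1 (r = 0.92), TUBB4B (r = 0.90) and PHF10 (r = 0.88). All of these were chosen among all tested transcripts measured in the same libraries. The diet means were left in the values, so the choice itself favored transcripts that differ between the diets as BAX does.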

How the data were processed

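Liver RNA of 5 HFr-fed and 5 chow-fed animals was sequenced by the authors as stranded polyadenylated libraries, aligned to ChlSab1.1 (STAR 2.5.3a, per the labels) and assigned to Ensembl release 93 transcripts by expectation-maximization in Partek Flow. The deposited estimated counts were not normalized, and 97.69% of the values were whole. The deposited normalized signal was these counts scaled by the authors with TMM, by a factor that was constant within each library to 0.00156%. Gene coordinates are those of the deposited table, counted from 1, with the listed stop left out. Libraries are described by animal and diet, as the sample titles give them.

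Counts were rounded, filtered with filterByExpr (minimum count 10, minimum total 15), scaled with TMM and compared with edgeR's quasi-likelihood test, with diet as the only term (R 4.3.3, edgeR 4.0.16, limma 3.58.1, DESeq2 1.42.0). The biological coefficient of variation was 29.0%. Adjusted p-values (Benjamini-Hochberg) cover every transcript tested. Standard errors are the size of the log2 fold change divided by the square root of F. Single transcripts, those under the filter included, were also compared with two-sided exact permutation tests of the mean normalized count. Correlations used log2(normalized count + 1). The procedure was tested on simulated data.

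Named genes were the 10 members, every tested gene of the further family, genes of the other pathway lists with an unadjusted p under 0.05 from edgeR, and for each tested member the 3 most similar transcripts. Outside this rule, CASP9, APAF1, CYCS, CASP8, YWHAZ, PMAIP1, HRK, BCL2L10 and the markers ALB, APOA1, TF, ACTA2, CD14 and KRT19 were named after the values were seen. Some genes of the lists, and 1 list, are not reported here. Members and lists were chosen with earlier results of these data known. Animals with the same replicate number were not treated as pairs, since neither the sample titles nor the study's methods say that the numbers match animals between diets. Alternatives were DESeq2, other scalings, other filters, counts summed by gene, limma and the study's equal-variance test on the normalized signal, a replicate block, robust estimation, a mitochondrial covariate, removal of mitochondrial transcripts and leaving out each animal. The last 2 kinds and the other scalings were also applied to the permutation tests of BAX and BID, which was decided after seeing the data.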

Additional observations from a re-analysis of the deposited data

Results flagged for a closer look

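ENDOG in HFr replicate 2 stood at 35.0 normalized counts, with the other HFr animals between 13.0 and 18.8. Its gap to the nearest animal was 0.736 of the range of the group, above Dixon's 95% critical value of 0.710 for 5 samples. It was 1 of 28 sets of values examined in this way, and chance flags about 1 in 20 sets.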

How the results depend on the processing

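The log2 fold change of BAX was positive in all 22 alternatives that tested it, from 0.60 with limma on the normalized signal (pseudocount 1) to 0.97 without HFr replicate 1. Its unadjusted p was under 0.05 in 21 of them, with scaling by library size only as the exception, and its adjusted p was never under 0.838, its value without a filter on low counts. The number of members under 0.05 moved from 1 to 0 with scaling by library size only and with at least 10 counts in every animal, a filter that BAX and BAD do not pass. None of the 3 tested members was free of overlap under any scaling, and members below the count filter were not checked under the other scalings. The number of transcripts under an unadjusted p of 0.05 was 341, against 124 with library size only, 756 of 16066 without a filter, 330 with DESeq2 and 255 to 396 with 1 animal left out. After adjustment DESeq2 called 2 transcripts, library size only 1 and the others 0, none of them a member. With TMM the difference of BAX in the permutation test ranged from 1.83 to 2.65 normalized counts and that of BID from 0.839 to 1.17 when 1 animal was left out, with p under 0.05 each time.

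The sign of a near-zero change turned for 4 genes. With 1 animal left out, BCL2L1 ranged from -0.1416 to 0.09985 (positive without HFr replicate 3 or chow replicate 2), BCL2L2 from -0.009551 to 0.1616 (negative without HFr replicate 3), BCL2L14 from -0.4372 to 0.2501 (positive without HFr replicate 1 or 2 or chow replicate 3) and BNIP3L from -0.1402 to 0.4254 (positive without HFr replicate 2, 4 or 5 or chow replicate 4 or 5). BNIP3L was 0.11 with library size only, 0.0062 with the upper quartile, 0.0018 without a filter, 0.016 with at least 10 counts in every animal, 0.15 with limma, 0.022 with the equal-variance test and 0.077 with the mitochondrial covariate. The causes were not tested.

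Deviations of same-numbered animals correlated between -0.287 and 0.099 and no HFr animal correlated best with its own number. A replicate block gave 271 transcripts under 0.05, BAX at 0.83 (edgeR unadjusted p = 0.0164), ENDOG at 0.54 (edgeR unadjusted p = 0.0605) and BNIP3L at 0.13. Of 7 alternatives in which ENDOG was not under 0.05, 4 left out an animal. The number of genes under 0.05 with 1 animal left out was 0 or 1 in the caspase, death receptor, further family and regulator lists. Among the regulators it was also 1 with the equal-variance test and without a filter. Low counts limit BAK1, MCL1, BIK, BCL2L11 and BCL2 most, with 36 reads or fewer over all animals, and why they were low was not tested.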

Other observations

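The 4 members with reads in every animal were compared with each other across the 10 animals, as 6 relations on log2 normalized counts. BCL2L1 and BAD had the highest correlation (Pearson's r = 0.67, permutation p = 0.0285, adjusted p = 0.171, Spearman's rho = 0.72, permutation p = 0.0233, adjusted p = 0.140), and r was 0.48 without the 2 animals farthest from the median of BAD. BAX and BID, the members with higher levels on HFr in the permutation test, had r = 0.53 (permutation p = 0.119, adjusted p = 0.358) and rho = 0.50 (permutation p = 0.142, adjusted p = 0.425), and r was 0.50 without the 2 animals farthest from the median of BAX. BAX and BCL2L1 had r = -0.04 (permutation p = 0.919) and rho = 0.10 (permutation p = 0.784), and r was -0.52 without the 2 farthest animals. The points of all relations share libraries and scaling factors, and none of the 6 passed adjustment.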
